A study of Mus musculus with 13 samples.

Results

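The Müller glia effector genes are 10 genes whose products carry out tasks of the mature Müller cell: Rlbp1, Crym, Slc1a3, Glul, Apoe, Clu, Car2, Prdx6, Dkk3 and Gpr37. They were chosen by name and matched on the gene name in the authors' deposited comparison table. All 10 were found among the 35734 genes of that table, and all 10 were among the 15532 genes tested here. After 9 h of forced Ikzf1 expression in retinal cells of the newborn mouse, 6 of the 10 fell, 1 rose and 3 did not pass the test. By the same test 29.9% of all genes fell and 29.4% rose, 59.3% in either direction.

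RNA-seq of CD1 mouse retina gave 8 libraries, 4 control and 4 Ikzf1. The labels call the cells retinal progenitor cells. Retinas of postnatal day 0 were dissociated and transfected, and after 9 h in culture the cells positive for green fluorescent protein (GFP) were sorted. The control plasmid encoded GFP alone, and the other encoded Ikzf1 with GFP from an internal ribosome entry site. Both groups carry the transfection and the sort. The promoter of the RNA-seq plasmids was not given in the sources used here. Per the labels' protocols, each control replicate held 400000 sorted cells and each Ikzf1 replicate 300000, so cell input and group cannot be told apart.

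Müller cells are the main glia of the retina and the last cell type born from its progenitors. In the adult they take up glutamate released by neurons and turn it into glutamine, regenerate retinoid for cones, buffer acid and carry lipids. Newborn retina consists largely of progenitors and young neurons, and progenitors share many transcripts with Müller glia. Ikzf1 (Ikaros) is a zinc finger protein of early retinal progenitors that binds DNA at sites with the core GGGAA.

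Libraries held 21405714 to 30510321 estimated read pairs. Ikzf1 itself took 0.00729 to 0.00917% of gene counts in the controls and 16 to 17.3% in the Ikzf1 libraries, with the groups as labelled. Levels below are CPM, counts scaled to a common library total, with a further scaling by edgeR (TMM) that sets the bulk of genes equal between groups. Changes are log2 fold changes of Ikzf1 over control from edgeR's quasi-likelihood test with Benjamini-Hochberg adjustment over all 15532 genes, called at an adjusted p under 0.05. Every edgeR value is given with its standard error (SE), and levels with their SD at n = 4 per group. Of all genes tested, 59.3% were called in either direction, 29.9% lower and 29.4% higher, so a call by itself does not set a gene apart here. Among the 10 effector genes 7 were called, which is near that background, with 6 lower and 1 higher. Their median log2 fold change was -0.34, against 0.001 for all genes. In bulk RNA, fewer cells of a type and less RNA per cell cannot be told apart.

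**Figure D1:**
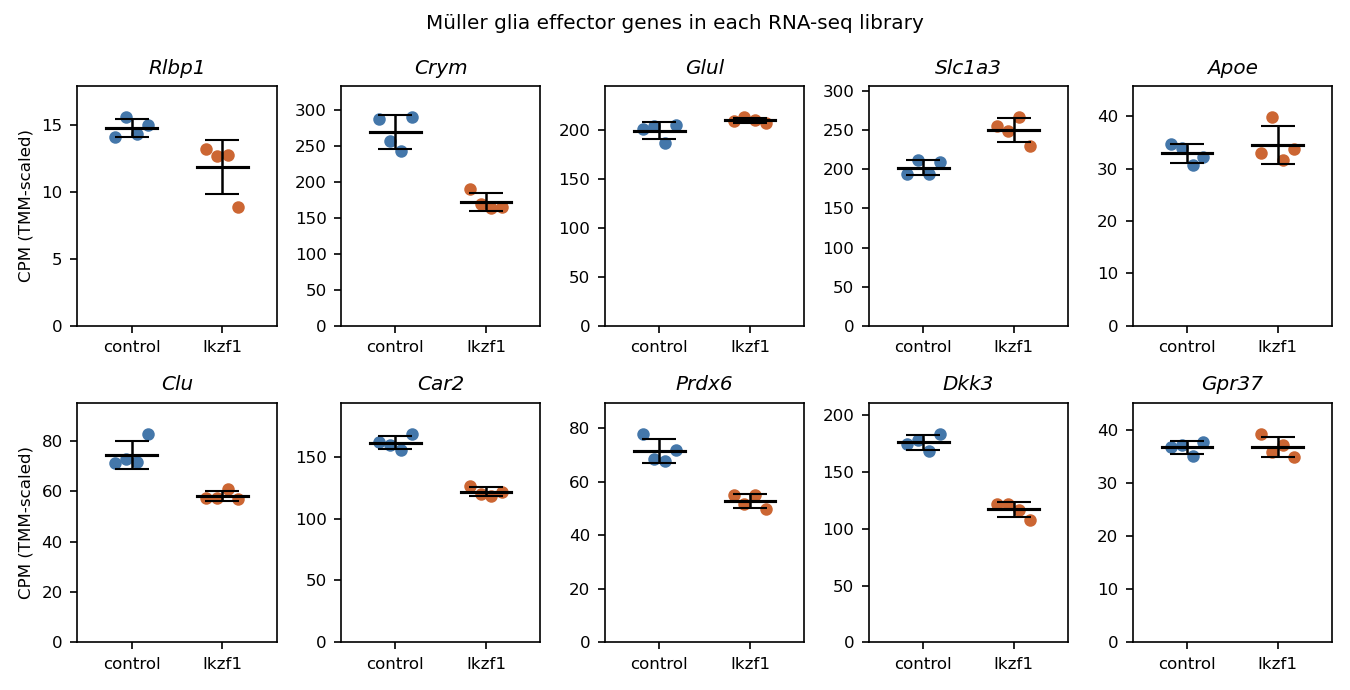
TMM-scaled CPM of each effector gene (vertical axes from 0) in the 4 control and 4 Ikzf1 libraries, 1 point per library in replicate order, with mean (horizontal line) and SD (bars). Crym runs from 243.07 to 289.38 in the controls and from 163.29 to 189.81 with Ikzf1, while the points of Apoe and Gpr37 overlap between groups.

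Rlbp1 (ENSMUSG00000039194, GRCm38 chromosome 7, 79374870 to 79387048, minus strand) encodes CRALBP, the carrier of 11-cis retinoids in Müller glia and pigment epithelium. It stood at 14.17, 15.61, 14.34 and 15.04 CPM in control replicates 1 to 4 and at 13.24, 12.68, 12.79 and 8.87 CPM in Ikzf1 replicates 1 to 4. All Ikzf1 libraries lay below all controls, and replicate 4 lay well below the other Ikzf1 libraries. Its change was -0.32 on the log2 scale (SE 0.103, adjusted p 0.00926 by edgeR), with a 95% interval from -0.53 to -0.11. Without Ikzf1 replicate 4 it was -0.19 with an edgeR adjusted p of 0.0666, so the call rested on that library. It was also lost in limma on log2(TPM + 1) with Ikzf1 left out of TPM, the abundance per length scaled to a common total (log2 -0.26, adjusted p 0.0776). The authors' deposited table gave -0.31 with an adjusted p of 0.0483. Rlbp1 was the shallowest of the effector genes, with 250 to 432 counts per library.

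Sequence before the start of Rlbp1 is shown because GGGAA, the core of the Ikaros motif, occurs in it. It covers 250 bases before the RefSeq start (GRCm38.p6, chr7:79387028-79387277, minus strand, printed 5′ to 3′ along the gene), and its last bases lie inside the deposited gene model. Capitals mark the motif, which reads TTCCC here because it lies on the opposite strand, with its first base 134 bases before the start. Slc1a3, the effector gene that rose, is also shown (chr15:8710808-8711057, minus strand) and holds no GGGAA on either strand.
Rlbp1: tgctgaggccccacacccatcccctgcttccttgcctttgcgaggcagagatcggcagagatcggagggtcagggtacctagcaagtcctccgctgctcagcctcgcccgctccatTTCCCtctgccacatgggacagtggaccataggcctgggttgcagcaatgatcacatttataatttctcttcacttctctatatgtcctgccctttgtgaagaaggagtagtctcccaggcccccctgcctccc
Slc1a3: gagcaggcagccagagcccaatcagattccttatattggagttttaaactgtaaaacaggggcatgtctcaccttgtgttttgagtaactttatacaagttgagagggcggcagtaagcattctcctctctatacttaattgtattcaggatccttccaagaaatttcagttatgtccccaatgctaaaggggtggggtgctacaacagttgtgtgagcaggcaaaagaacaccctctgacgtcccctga

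Windows of 5 effector genes were in the RefSeq table: Rlbp1, Slc1a3, Glul, Apoe and Gpr37. GGGAA, searched on both strands, was found in those of Rlbp1, Apoe and Gpr37 and not in those of Glul and Slc1a3. Apoe had several windows, of which windows 2 and 3 lie inside the deposited gene model, as does the Gpr37 window. The same letters occur in 56.2% of 32851 such windows over all genes. Counted per gene, 59.4% of 27025 genes have them in a window. The longer TGGGAA, which contains GGGAA, was in none of the windows of these 5 genes and in 21.6% of all windows. No window was available for Crym, Clu, Car2, Prdx6 or Dkk3, so Rlbp1 alone stands for the genes that fell. Apoe and Gpr37, which hold GGGAA, did not pass the test. These windows therefore cannot relate the motif to the direction of change. A match describes the letters only.

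Crym (ENSMUSG00000030905, chromosome 7, 120186380 to 120202111, minus strand) encodes mu-crystallin, a cytosolic binder of thyroid hormone and a ketimine reductase. It had the largest fall of the 10. Its CPM was 287.30, 255.98, 243.07 and 289.38 in control replicates 1 to 4 and 189.81, 169.80, 163.29 and 165.05 in Ikzf1 replicates 1 to 4. The groups lay far apart, and the highest Ikzf1 library stood below the lowest control. Mean levels were 268.9 ± 23.0 CPM without and 172.0 ± 12.2 CPM with Ikzf1, and the log2 change was -0.65 (SE 0.058, adjusted p 5.41e-09 by edgeR). Of all tested genes, 12.8% had a lower log2 fold change than Crym.

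Genes around Crym and Rlbp1 were taken from lists of thyroid hormone handling and of the visual cycle. Crym and Rlbp1 are themselves counted in these lists. Effector genes are likewise counted in the glutamate, lipoprotein, carbonic anhydrase, Dickkopf and antioxidant lists below. Every list count is to be read beside the 29.9% of all tested genes that fell and the 29.4% that rose. In the thyroid hormone list 8 of 13 tested genes fell and 2 rose, with a median log2 fold change of -0.37 (all genes 0.001). Slc16a10, an exporter of thyroid hormone and aromatic amino acids, rose from 5.855 to 26.04 CPM (log2 2.16, SE 0.0917, edgeR adjusted p 8.97e-18). Rxra, a retinoid X receptor, rose by 0.36 on the log2 scale. The uptake carrier Slco1c1 fell from 2.476 to 0.4798 CPM (log2 -2.37), and Dio2, which activates the hormone, fell from 2.481 to 1.382 CPM (log2 -0.85). In the visual cycle list 10 of 15 tested genes fell and 3 rose, with a median of -0.32. Rlbp1 is itself the middle gene of this list, so the median is its own value. The number that fell was 6 without Ikzf1 replicate 4, 6 with an offset for transcript length and 5 of 13 in TPM with Ikzf1 left out. Rbp4, the plasma carrier of retinol, rose from 18.14 to 55.43 CPM (log2 1.61, SE 0.0661, edgeR adjusted p 4.24e-18). Dhrs3, a retinal reductase, rose at a low level, from 0.3036 to 0.8021 CPM, and the retinol esterifying Dgat1 rose by 0.37 on the log2 scale. Rdh8, a photoreceptor retinol dehydrogenase, fell from 1.578 to 0.6918 CPM. The retinol transporter gene Stra6 fell from 0.6222 to 0.3241 CPM (log2 -0.94, edgeR adjusted p 0.0461). The Stra6 call was lost without any single control library or without Ikzf1 replicate 2, 3 or 4, where the log2 fold change was -1.02 to -0.76.

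Slc1a3 (ENSMUSG00000005360, chromosome 15, 8634124 to 8710764, minus strand) encodes GLAST, the sodium-driven glutamate transporter of Müller glia and of progenitors. It was the effector gene that rose. Its CPM was 193.82, 211.38, 193.33 and 208.78 in control replicates 1 to 4 and 254.44, 249.16, 266.12 and 229.69 in Ikzf1 replicates 1 to 4. Every Ikzf1 library stood above every control. Mean levels were 201.8 ± 9.59 CPM in the controls and 249.9 ± 15.2 CPM with Ikzf1. On the log2 scale Slc1a3 rose by 0.31 (SE 0.047, adjusted p 2.25e-06 by edgeR), or 23.8% higher. Leaving out any single library gave 0.28 to 0.35.

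Glul (ENSMUSG00000026473, chromosome 1, 153899944 to 153909723, plus strand) encodes glutamine synthetase, which joins ammonia to the glutamate that GLAST brings in. It stood at 201.54, 204.85, 187.31 and 205.71 CPM in the controls and at 209.31, 213.49, 210.79 and 207.47 CPM with Ikzf1. The groups did not overlap, though the highest control lay close to the lowest Ikzf1 library. Glul had a log2 fold change of 0.07 (SE 0.042, adjusted p 0.140 by edgeR), with a 95% interval from -0.01 to 0.16, and it was 0.043 without control replicate 3. With an offset for transcript length in edgeR it was 0.12 with an adjusted p of 0.0468. The authors' deposited table gave the same 0.12 with an adjusted p of 0.0289. In TPM as deposited, where the added Ikzf1 lowers every other gene's share, Glul had the opposite sign (limma, log2 -0.11, adjusted p 0.0366), against a median of -0.21 for all genes. Teddm2 overlaps Glul on the opposite strand, at a mean of 6.24 normalised counts in the authors' deposited table.

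Slc1a3 rose while the 5 other tested genes of its family, carriers of glutamate or neutral amino acids, fell; the differences between them were not tested. The neuronal carrier Slc1a1 fell by 0.31 and the astrocyte carrier Slc1a2 fell by 0.64 on the log2 scale. The retinal carrier Slc1a7 fell by 0.78, from 8.279 to 4.821 CPM. The neutral amino acid carriers Slc1a4 (log2 -0.13, adjusted p 0.0263) and Slc1a5 (log2 -0.21, adjusted p 0.0236) passed edgeR's test narrowly. The Slc1a4 call was lost without control replicate 2 or 4 or Ikzf1 replicate 2 or 4 (log2 -0.12 to -0.09), and the Slc1a5 call without control replicate 4 or Ikzf1 replicate 1 (log2 -0.19 to -0.16). Over the whole glutamate and glutamine list, 11 of 18 tested genes fell and 3 rose, with a median of -0.17, and 7 fell in TPM with Ikzf1 left out. Got1, which exchanges the amino group of aspartate and glutamate, rose from 45.85 to 74.06 CPM (log2 0.69), and the glutamine carrier Slc38a2 rose by 0.23. Gad1, which makes GABA from glutamate in inhibitory neurons, fell from 11.33 to 3.758 CPM (log2 -1.59).

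**Figure D2:**
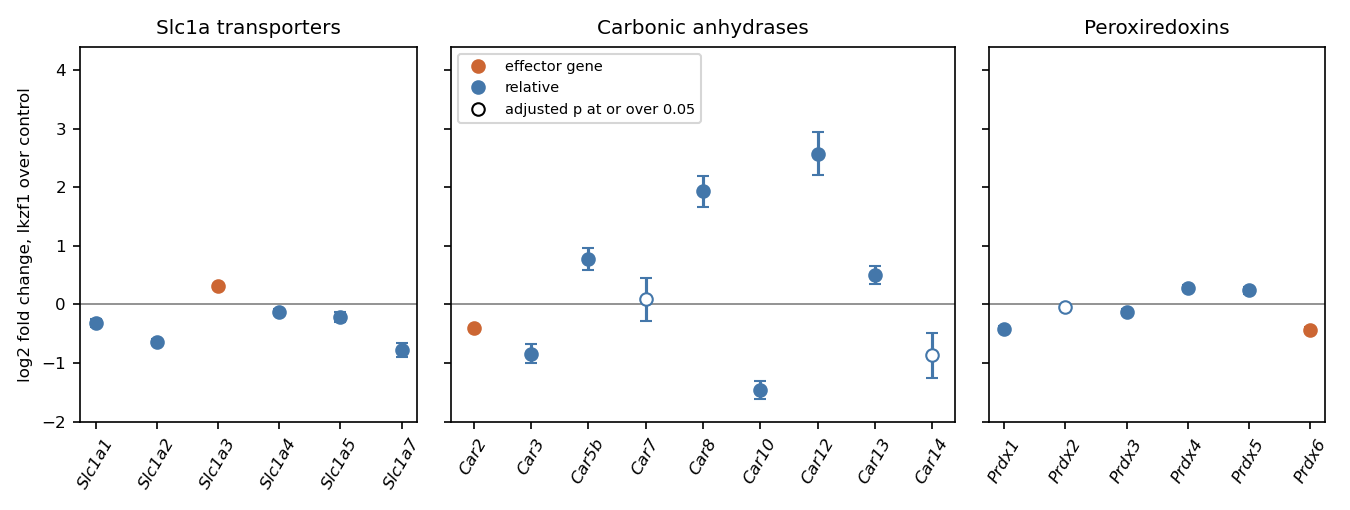
Log2 fold change (vertical axis, Ikzf1 over control, edgeR) of every tested gene of the Slc1a, carbonic anhydrase and peroxiredoxin families, with bars of 1 SE, effector genes in orange and open points where the adjusted p was at or over 0.05. Slc1a3 is the point above 0 in its family, while Car2 and Prdx6 each have relatives on both sides of 0.

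Apoe (ENSMUSG00000002985, chromosome 7, 19696109 to 19699188, minus strand) encodes the apolipoprotein that Müller glia secrete to move cholesterol and phospholipid. Its CPM was 34.72, 33.98, 30.58 and 32.24 in the controls and 32.91, 39.76, 31.67 and 33.79 with Ikzf1. The groups overlapped, and Ikzf1 replicate 2 was the highest library. Apoe had a log2 value of 0.07 (SE 0.068, adjusted p 0.390 by edgeR), with a 95% interval from -0.07 to 0.21. It was 0.0007 without Ikzf1 replicate 2, 0.037 without control replicate 3 and 0.111 without Ikzf1 replicate 3.

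Clu (ENSMUSG00000022037, chromosome 14, 65968483 to 65981547, plus strand) encodes clusterin, a secreted chaperone that also travels on lipoprotein particles. It stood at 71.23, 72.65, 71.41 and 82.77 CPM in the controls and at 57.18, 57.25, 60.82 and 56.76 CPM with Ikzf1. All controls lay above all Ikzf1 libraries, and control replicate 4 stood above the rest. Clu fell, with a log2 fold change of -0.36 (SE 0.053, adjusted p 1.07e-06 by edgeR), and -0.38 to -0.31 with any single library left out. The difference in change between Clu and Apoe was not tested.

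Of 21 tested genes of lipoproteins, their receptors and sterol control, 8 fell and 3 rose (29.9% and 29.4% of all genes), with a median of -0.20. That median was -0.11 without control replicate 1, -0.12 without control replicate 3 or Ikzf1 replicate 3, -0.08 without Ikzf1 replicate 2 and -0.31 without control replicate 4. Among the 16 genes with a mean of at least 10 CPM it was 0.047. The large endocytic receptor gene Lrp2 fell from 24.36 to 13.02 CPM (log2 -0.91). The sterol exporter Abcg1 rose by 0.52 and the lipid synthesis regulator Srebf1 rose by 0.35 on the log2 scale. Apod, an apolipoprotein gene of the same list, was near the floor at 0.5408 and 0.4412 CPM (edgeR adjusted p 0.645).

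Car2 (ENSMUSG00000027562, chromosome 3, 14886273 to 14900770, plus strand) encodes the cytosolic carbonic anhydrase with which Müller glia turn carbon dioxide into bicarbonate. Its CPM was 161.53, 159.73, 155.53 and 168.39 in the controls and 126.41, 119.47, 118.43 and 121.78 with Ikzf1. Both groups were tight and lay far apart. Car2 fell by 24.7%, a log2 fold change of -0.41 (SE 0.043, adjusted p 2.52e-09 by edgeR), and of -0.43 to -0.39 with any single library left out.

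Carbonic anhydrases did not share a direction. Car10, a catalytically inactive relative, fell from 6.011 to 2.195 CPM (log2 -1.46), and Car3 fell by 0.84 on the log2 scale. The membrane enzyme Car12 rose from 0.36 to 2.114 CPM (log2 2.58, SE 0.3673, edgeR adjusted p 8.7e-07). Car8, also inactive as an enzyme, rose from 0.8209 to 3.152 CPM (log2 1.93), the mitochondrial Car5b rose by 0.78 and the cytosolic Car13 rose by 0.51. Car14, an enzyme on the surface of Müller glia, stood at 0.8808 and 0.481 CPM (log2 -0.87, edgeR adjusted p 0.055), and Car7 at 0.6656 and 0.7089 CPM. With bicarbonate carriers included, 5 of 14 tested genes fell and 5 rose, against 29.9% and 29.4% of all genes. The anion exchanger gene Slc4a3 fell from 23.17 to 11.57 CPM. The sodium bicarbonate carrier Slc4a4 rose from 16.34 to 29.53 CPM. Car2 was the most abundant of the anhydrases in these libraries by CPM, which is not a comparison per length.

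Prdx6 (ENSMUSG00000026701, chromosome 1, 161240112 to 161251219, minus strand) encodes a peroxiredoxin that reduces peroxides, oxidised phospholipids included. It stood at 77.88, 68.44, 67.69 and 71.90 CPM in the controls and at 54.88, 51.70, 54.96 and 49.76 CPM with Ikzf1. The lowest control lay above every Ikzf1 library. Prdx6 fell, at -0.44 on the log2 scale (SE 0.054, adjusted p 5.59e-08 by edgeR). The near-identical copies Prdx6b and Prdx6-ps2 had means of 0.386 and 0.14 normalised counts in the authors' deposited table.

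Peroxiredoxins moved both ways. Prdx1 fell by 0.42 on the log2 scale, close to Prdx6, and the mitochondrial Prdx3 fell by 0.12 (edgeR adjusted p 0.0454). The endoplasmic reticulum enzyme Prdx4 rose by 0.28 and Prdx5 rose by 0.24. Prdx2, the most abundant by CPM, stood at 266.9 and 257.7 CPM (log2 -0.05, edgeR adjusted p 0.346). The Prdx3 call was lost without control replicate 1, 2 or 4 or Ikzf1 replicate 2 or 3 (log2 -0.13 to -0.09). Among all 24 tested antioxidant genes 11 fell and 6 rose, with a median of -0.12. The glutathione peroxidase Gpx1 fell from 41.2 to 20.31 CPM (log2 -1.02), and the quinone reductase Nqo1 fell from 1.307 to 0.7224 CPM (log2 -0.85, edgeR adjusted p 0.044). The Nqo1 call was lost without control replicate 3 or 4 or Ikzf1 replicate 2 or 3 (log2 -0.75 to -0.63). Gstp1, a glutathione transferase, and Srxn1, which repairs oxidised peroxiredoxins, each rose by 0.31 on the log2 scale.

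Dkk3 (ENSMUSG00000030772, chromosome 7, 112116017 to 112159057, minus strand) encodes a secreted glycoprotein, the divergent member of the Dickkopf family of Wnt modulators. Its CPM was 174.47, 178.06, 167.93 and 183.43 in the controls and 122.02, 121.98, 116.62 and 108.05 with Ikzf1. The groups were far apart relative to their spread. Dkk3 fell by 33.5%, a log2 fold change of -0.59 (SE 0.046, adjusted p 7.38e-12 by edgeR), with the smallest p among the 10 genes. Among the other tested genes of the Dickkopf list, the Wnt coreceptor Lrp5 fell by 0.43 and the Dickkopf receptor Kremen1 fell by 0.29, while the coreceptor Lrp6 rose by 0.14. On TPM as deposited Lrp6 and Dkkl1 had the opposite sign. Dkk2 rose from 0.165 to 0.7232 CPM (log2 2.10). Dkkl1 stood at 6.013 and 7.283 CPM (log2 0.27, edgeR adjusted p 0.0483), and its call was lost without any single library other than control replicate 3 (log2 0.21 to 0.30). In all, 3 of 7 tested genes of that list fell and 3 rose, and 1 rose with an offset for transcript length.

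Gpr37 (ENSMUSG00000039904, chromosome 6, 25665878 to 25690729, minus strand) encodes a receptor of glia for which prosaposin has been proposed as a ligand. It stood at 36.91, 37.27, 35.07 and 37.78 CPM in the controls and at 39.34, 35.89, 37.28 and 34.96 CPM with Ikzf1. The groups overlapped over most of their range. The log2 fold change was 0.004 (SE 0.058, adjusted p 0.958 by edgeR), with a 95% interval from -0.12 to 0.12, and -0.026 to 0.032 with any single library left out. In TPM as deposited it was -0.24 (limma adjusted p 0.0084), close to the median of -0.21 for all genes on that scale. The proposed ligand gene Psap rose from 209.3 to 263.2 CPM (log2 0.33, SE 0.0437, edgeR adjusted p 1.81e-07). The paralogue Gpr37l1 had a mean of 0.0 in the authors' deposited table.

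**Figure D3:**
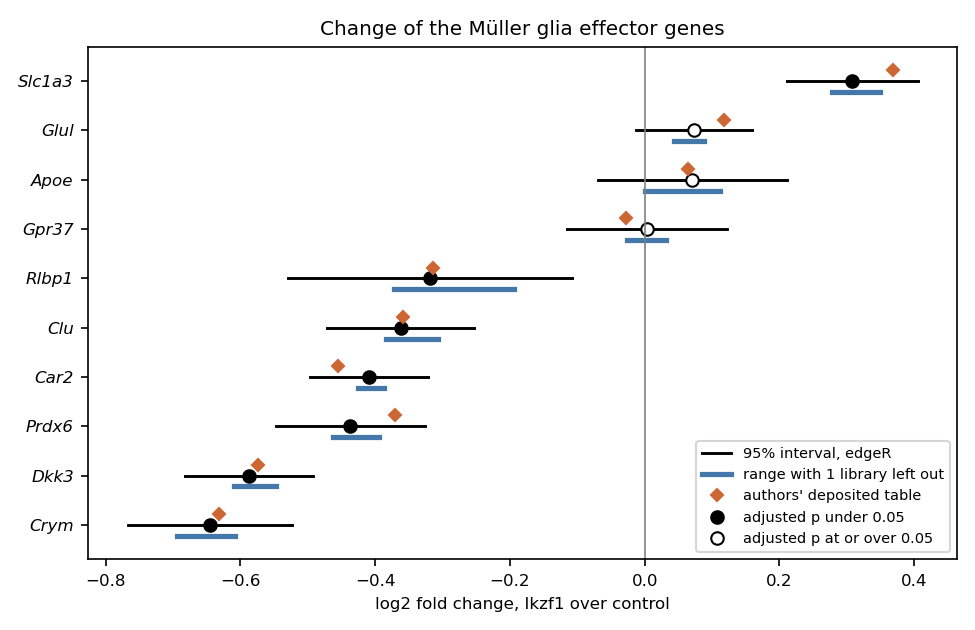
Log2 fold change (horizontal axis, Ikzf1 over control) of each effector gene from edgeR with its 95% interval, filled where the adjusted p was under 0.05, the range with any 1 library left out (blue) and the authors' deposited value (orange diamonds). Crym and Dkk3 lie lowest at -0.65 and -0.59, Slc1a3 lies highest at 0.31, and the intervals of Glul, Apoe and Gpr37 include 0.

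The effector genes moved in both directions: the 95% interval of Slc1a3, 0.21 to 0.40, lay above 0 and those of the 6 genes that fell lay below it. In 8 of the 10 genes the groups did not overlap, 6 lower and 2 higher with Ikzf1. Among all genes tested, 53.2% had groups that did not overlap, 26.7% lower and 26.5% higher.

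Levels between genes were compared in TPM, which corrects for length. In the controls Crym was highest at 408.2 ± 34.1 TPM, followed by Car2 at 201.1 ± 6.77, Glul at 149.1 ± 5.61 and Prdx6 at 124.5 ± 9.68 TPM. Dkk3 at 103.6 ± 3.88, Slc1a3 at 99.96 ± 3.19 and Clu at 89.77 ± 9.38 TPM formed a middle group, in which Slc1a3 overlapped both neighbours over the 4 libraries. Apoe followed at 66.67 ± 5.64 TPM, then Gpr37 at 17.15 ± 0.734 and Rlbp1 at 14.6 ± 0.582 TPM. Every other pair of neighbours in this order was separated in all 4 control libraries.

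Because the added Ikzf1 takes 17.0 to 18.6% of TPM in its libraries, levels there were set on TPM rescaled without Ikzf1. On that scale Crym was still highest at 273.0 ± 16.9 TPM. Glul at 168.4 ± 4.35 TPM ranked above Car2 at 152.4 ± 3.73, and Slc1a3 at 134.3 ± 4.5 ranked above Prdx6 at 99.97 ± 2.27 TPM. Clu, Apoe and Dkk3 had similar means of 72.67, 72.56 and 72.24 TPM. Gpr37 at 17.5 ± 0.6 and Rlbp1 at 12.12 ± 2.11 TPM stayed lowest. The glutamate genes Glul and Slc1a3 thus ranked 2 and 4 by level with Ikzf1, against 3 and 6 in the controls.

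**Figure D4:**
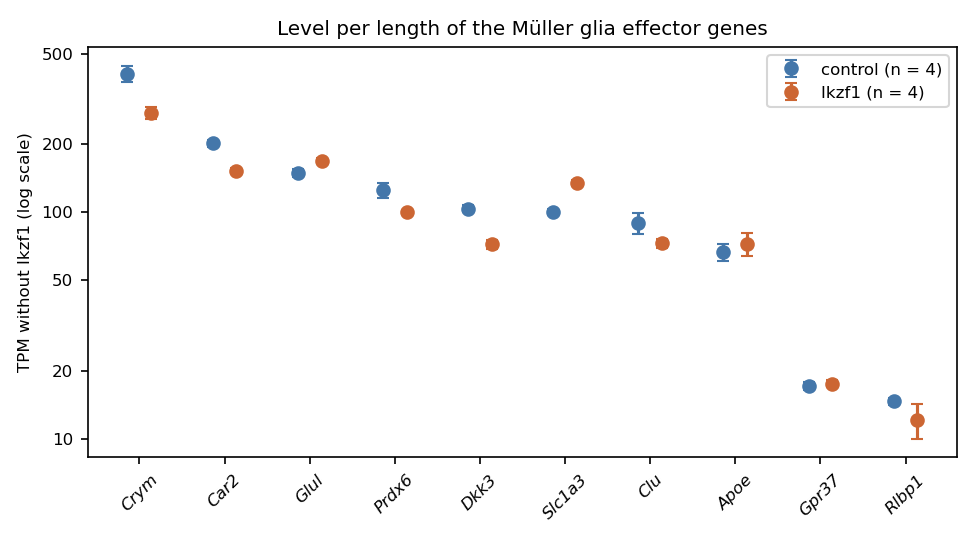
Mean TPM rescaled without Ikzf1 (log scale, vertical axis) of each effector gene in control (blue) and Ikzf1 (orange) libraries, with bars of 1 SD, ordered by the control level. Levels span from 14.6 for Rlbp1 to about 408.3 for Crym in the controls, and the orange point lies above the blue one for Slc1a3, Glul, Apoe and Gpr37, with overlapping bars for the last 2.

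Estimated transcript make-up was examined for the 9 effector genes with at least 2 transcripts of 1 TPM or more, which leaves out Dkk3. The share of a gene's TPM in its leading transcript did not pass an adjusted p of 0.05 for any of them by a two-sided exact permutation test. The smallest unadjusted exact p that 4 against 4 libraries allow, 0.0286, was reached by 3 genes, each with an adjusted p of 0.0857. No gene can pass after adjustment unless most of the 9 reach that floor, so the test could hardly call a single gene. In Car2 the leading transcript held 89.63% ± 0.406 of TPM in the controls and 94.4% ± 1.31 with Ikzf1. A short Car2 transcript of 587 bases (ENSMUST00000192609.5) stood at 18.6, 13.1, 13.4 and 15.3 TPM in the controls and at 2.56, 5.85, 0.0 and 1.45 TPM with Ikzf1. In Glul the leading share was 94.81% ± 0.588 and 92.3% ± 1.17, and in Prdx6 42.09% ± 3.13 and 34.11% ± 2.12. By estimated counts Car2 and Slc1a3 reached an exact permutation p of 0.0286. Glul did not (98.83% and 98.58%, p 0.2), nor did Prdx6 (29.28% and 24.75%, p 0.0571). The leading Prdx6 transcript, at a control mean of 52.6 TPM, was nearly level with ENSMUST00000192639.5 at 52.1 TPM. A short Prdx6 transcript of 603 bases (ENSMUST00000139387.7) was estimated at 0 in all controls and at 9.89, 9.21, 0.0 and 12.9 TPM with Ikzf1. The main Rlbp1 transcripts, of 2142 and 2134 bases, shared reads to a varying degree, with 41.79 to 76.35% of TPM given to the first across the controls. Salmon splits reads between overlapping transcripts, so these shares are estimates.

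Other genes of Müller glia that are no effector genes here fell more often than they rose. Of 23 tested genes of a list of 28, 14 fell and 3 rose (29.9% and 29.4% of all genes), with a median log2 fold change of -0.64. Cav1, a caveola coat protein, fell from 31.27 to 5.585 CPM (log2 -2.49, SE 0.0923, edgeR adjusted p 3.97e-19). The matrix protease inhibitor gene Timp3 fell from 89.19 to 20.43 CPM (log2 -2.13). The endothelin receptor gene Ednrb rose from 4.911 to 14.95 CPM (log2 1.61), and Sparcl1, a secreted matrix protein, rose from 0.2199 to 0.856 CPM. Spc24, a kinetochore gene reported in Müller glia, rose by 0.42 on the log2 scale in edgeR, a call lost with an offset for transcript length and in TPM, with Ikzf1 left out or not. Vim, the intermediate filament protein of progenitors and glia, was the most abundant gene of that list and fell from 1596 to 721.7 CPM (log2 -1.15).

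Channel genes of mature Müller glia were low. The water channel gene Aqp4 had a mean of 1.27 normalised counts in the authors' deposited table. The potassium channel gene Kcnj10 stood at 3.987 and 4.341 CPM (edgeR adjusted p 0.495). Progenitor markers summed to 2700 to 2850 CPM in the controls and 2580 to 2650 CPM with Ikzf1. The proliferation marker Mki67, the highest of them, stood at 418.5 and 457.9 CPM (log2 0.13, edgeR adjusted p 0.031). The Mki67 call was lost without control replicate 1 or 3 or Ikzf1 replicate 1 or 3 (log2 0.08 to 0.12), and its sign turned in TPM as deposited. Of 15 glial transcription factors and Notch genes, 10 fell and 1 rose, with a median of -0.40. Sox9 fell from 131.9 to 34.03 CPM (log2 -1.95) and Id3 from 51.19 to 16.1 CPM (log2 -1.67), whereas Id2 rose from 15.81 to 23.53 CPM (log2 0.57).

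Markers of other cells that could carry these transcripts were given the same count, beside 29.9% of all tested genes lower and 29.4% higher. Pigment epithelium shares Rlbp1 with Müller glia. Of its 13 markers Rpe65 was at 0.0 in the authors' deposited table and Lrat, Ttr and Tyrp1 were under 5 normalised counts. Without Otx2, the highest, which photoreceptor precursors also express, the sum was 22.2 to 23.4 CPM in the controls and 16.2 to 18.7 CPM with Ikzf1. With Otx2 counted, 3 of 8 tested markers fell. They were Otx2, from 316.5 to 237.7 CPM, Mitf, from 6.172 to 2.351 CPM, and Rgr, from 2.62 to 1.544 CPM. The Rgr call was lost without control replicate 4 (log2 -0.61, edgeR adjusted p 0.0612). The part of pigment epithelium in the fall of Rlbp1 was not tested.

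Astrocytes share Slc1a3, Glul and Apoe, and microglia express Apoe. The 5 measured astrocyte markers of 7 summed to 6.96 to 8.25 CPM in the controls and 6.9 to 7.06 CPM with Ikzf1. The highest of them, Pdgfra, stood at 2.193 and 2.577 CPM, and 1 of 5 tested markers, Pax2, fell from 1.981 to 0.86 CPM (2 fell without control replicate 4). Microglia markers, 10 of 12 measured, summed to 11.5 to 16.6 CPM and 11.2 to 15.0 CPM, and 0 of 6 tested passed edgeR's test, 0 at an unadjusted p under 0.05 and 0 by DESeq2. In edgeR 1 of 7 or 8 tested fell without control replicate 4 or Ikzf1 replicate 2, 3 or 4.

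Vessel and lens cells were checked in the same way. Of 8 tested endothelial and pericyte markers 3 fell, against 29.9% of all tested genes. Kdr, which progenitors and young neurons of the retina also express, fell from 438.5 to 216.5 CPM, Flt1 from 102.2 to 19.18 CPM and Tek from 0.7912 to 0.3476 CPM. Without the abundant Kdr and Flt1 the list summed to 7.6 to 10.4 CPM in the controls and 6.98 to 10.7 CPM with Ikzf1. The 3 measured lens markers of 12 summed to 3.66 to 4.46 CPM and 1.4 to 2.42 CPM, and Crybb3 fell from 3.215 to 1.036 CPM. The part of these cells in the changes of Car2, Clu and Crym was not tested.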

How the data were processed

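The 8 RNA-seq libraries (4 control, 4 Ikzf1, grouped by sample title) were used, and the peak lists were not analysed here. Per the labels, Salmon gave the deposited estimated counts and TPM of each transcript. Per the file headers, the deposited table of Ikzf1 against control holds a mean signal per gene in normalised counts, a log2 fold change, a Wald score and p-values. DESeq2 made it, per the submitters' processing notes. Salmon's version and index and strand use in counting are not given in the sources used here. The library kit was a stranded one.

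The transcript files name no genes, so neighbouring transcripts were summed where they gave the deposited mean of a gene within a relative tolerance of 5e-09. Among the 16815 genes whose mean reached 5, 98.6% were joined, all 10 effector genes included, and joined genes held 99.13 to 99.27% of reads. On simulated data 100.0% of joins were right.

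Estimated counts were rounded to whole numbers and tested with edgeR 4.0.16 (R 4.3.3, filterByExpr, TMM, robust quasi-likelihood F test, adjusted p under 0.05). The SE is the log2 fold change over the root of F. On counts simulated for this comparison (15527 genes) 97.4% of 196 genes changed by 1 on the log2 scale were recovered, and 6.83% of 205 calls were false. The simulation had few changed genes, a common dispersion and no added Ikzf1. It does not give these rates for the smaller changes of the effector genes. Alternatives used DESeq2 1.42.0 and limma 3.58.1 on log2(TPM + 1). Transcript shares were tested by exact permutation (Python 3.11.15), adjusted over 9 genes. Promoter windows came from RefSeq (GRCm38.p6).

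The effector genes and the related gene lists were chosen with earlier results of these data known. Named from each related list were the 2 largest rises and falls among genes past the threshold and relatives of the effector genes, and from each marker list the gene with the highest mean CPM. Vim and genes that complete a count of 5 or fewer were named after their values were seen. Some genes that this rule names are not reported here. Replicates are biological per the labels. Intervals are for the difference between the groups and rest on the variation between these libraries only.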

Additional observations from a re-analysis of the deposited data

Results flagged for a closer look

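Single libraries were compared with the other 3 of their group for each effector gene, in 38 groups of 4 in all, and a library was picked out where its gap to the nearest other exceeded Dixon's 95% limit. Chance picks about 1 in 20 groups, and 5 were picked here. Rlbp1 in Ikzf1 replicate 4 stood at 8.87 CPM, against 12.68 to 13.24 CPM in the others, and the call for Rlbp1 was lost without it (log2 -0.19, edgeR adjusted p 0.0666). Clu stood at 82.77 CPM in control replicate 4, against 71.23 to 72.65 CPM, and at 60.82 CPM in Ikzf1 replicate 3, against 56.76 to 57.25 CPM. The leading Rlbp1 transcript held 41.79% of TPM in control replicate 2, against 71.0 to 76.35% in the other controls. The leading Car2 transcript held 89.03% of TPM in control replicate 1, against 89.78 to 89.87%.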

How the results depend on the processing

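Crym, Dkk3, Prdx6, Car2, Clu and Slc1a3 kept direction and call under every alternative run. TPM as deposited, compressed by Ikzf1, moved the median of all genes to -0.21 (pseudocount 1), -0.22 (0.1) and -0.17 (unfiltered) on the log2 scale. There, 1714, 1703 and 1884 genes were called higher, and lower 6774 with pseudocount 1 and 7049 unfiltered, against 4570 and 4647. On those 3 scales Glul was -0.11, Apoe -0.16, -0.17 and -0.16, and Gpr37 -0.24, -0.26 and -0.24. With pseudocount 1 the calls of Prdx4, Prdx5, Car13, Rxra, Srebf1, Gstp1, Srxn1, Slc38a2, Dgat1, Rgr, Lrp6, Dkkl1 and Mki67 were lost. Gpr37 was also -0.03 with a length offset, and -0.0262 to 0.032 with 1 library left out, below 0 without control replicate 3 (-0.0186), Ikzf1 replicate 1 (-0.0262) or Ikzf1 replicate 3 (-0.0001). Slc1a3 and Glul, 2 effector genes, were called higher with a length offset and with TPM rescaled without Ikzf1 (an alternative chosen after seeing the data), where Rlbp1 was -0.26 (limma adjusted p 0.0776). With 1 library left out, 4246 to 4494 genes were higher and 4382 to 4517 lower, with 1 effector gene higher and 5 to 6 lower. Replicate numbers did not pair the libraries (correlations of same-numbered deviations -0.074, -0.032, 0.028 and -0.014). With a replicate block 4390 genes were higher and 4503 lower, and the effector genes again gave 1 and 6. Depth limits Rlbp1 most, at 250 to 432 counts per library.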
